A study of Mus musculus with 5 samples.

Results

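Angptl4, Lpl and PPAR target genes of lipid use were compared between mouse melanoma cells with a constitutively active MNK1 and cells with an empty vector. The set was given as 10 gene symbols (Angptl4, Angptl2, Lpl, Lipg, Plin2, Cpt1a, Acadvl, Ppard, Pparg and Cd36), and all 10 were found among the 46959 gene symbols of the count tables. The members were chosen by symbol with the measured differences between caMNK and pBABE in these same libraries known, so the levels and fold changes of these 10 genes are given as a description, without p-values. The cells were D4m.3a, a murine melanoma line from the C57BL/6 strain, at passages 7 to 12. The 3 caMNK libraries came from D4m.3a cells whose genotype is given as constitutive activation of MNK, with the protein named caMNK1 in the protocol, and the 2 pBABE libraries from D4m.3a cells labelled control, which the series text makes the reference. Total RNA was sequenced. The labels do not say how the replicate cultures were kept apart, whether the lines are clones, or what species the introduced kinase cDNA came from. Each group is a separate cell line, and an effect of the kinase cannot be told apart from another difference between the lines.

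MNK1, encoded by Mknk1, is a kinase downstream of ERK and p38 whose best-known substrate is eIF4E, the factor that binds the mRNA cap. Lipoprotein lipase, the product of Lpl, releases fatty acids from the triglycerides of circulating lipoproteins, and the secreted protein ANGPTL4 inhibits it. PPARs are nuclear receptors that bind fatty acids and, with an RXR partner, activate genes that store and oxidise them. Angptl4, Plin2, Cpt1a and Pdk4 are known targets of these receptors, and Angptl4 and Plin2 are also known to respond to hypoxia.

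The libraries held 27827199 to 48794336 counts in caMNK and 32963884 to 42730166 in pBABE. Mknk1 measured 167, 155 and 168 CPM (read counts relative to library totals scaled with TMM, a unit in which 3 reads were worth 0.0617 to 0.105) in caMNK, against 15.2 and 16.7 CPM in pBABE. Counts of every pair of libraries differed by more than sampling noise. Of the 8 melanocyte lineage markers, Mitf, the melanocyte transcription factor gene, lay between 4.35 and 6.48 CPM and S100b between 2.32 and 3.14 CPM in all 5 libraries. Tyrp1 and Dct had no counts, and Tyr, Mlana, Sox10 and Pmel stayed under 1 CPM. Of 17026 genes that passed the filter on low counts, 753 were higher and 599 lower in caMNK at a Benjamini-Hochberg adjusted p under 0.05 by edgeR's quasi-likelihood test. These are 4.42% and 3.52% of the genes tested, and with total-count scaling 68.1% of the calls were of higher genes, against 55.7% with TMM. Calls depended on single libraries: 11 genes were higher and 12 lower without pBABE replicate 1, 37 and 18 without pBABE replicate 2, 175 and 80 without caMNK replicate 1, and 2325 and 2617 without caMNK replicate 2. Without caMNK replicate 3, 938 genes were higher and 774 lower, against 753 and 599 with all libraries. Over all 5 libraries, 6 of the 10 tested mitochondrial mRNAs rose, with a summed level of 18762 to 21654 CPM in caMNK and 12284 to 13526 CPM in pBABE. Of 5 tested nuclear non-coding RNAs, 2 rose, Malat1, which shares reads with Gm37376, 2.32-fold and Neat1 2.53-fold, and 1 fell, Rpph1 (log2 fold change −1.29). The part of these RNA classes in the results below was not tested.

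Of the 10 genes, 8 passed the filter, and Pparg and Cd36 did not. Angptl4 was the member higher and Lpl the member lower past the threshold, beside 4.42% and 3.52% of all genes tested. The contrast chose the members, so nothing is read from these counts. The caMNK and pBABE values did not overlap for 4 of the 8 tested members, beside 44.9% of all genes tested.

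Angptl4 encodes the secreted lipase inhibitor and lies on chromosome 17 from 33773750 to 33781830 on the minus strand (mm10). It measured 12.7, 6.50 and 12.4 CPM in caMNK replicates 1, 2 and 3, against 0.983 and 1.61 CPM in pBABE replicates 1 and 2. Every caMNK library was above both pBABE libraries, and caMNK replicate 2 lay well below the other caMNK libraries. The reads behind these values numbered 365, 316 and 459 in caMNK and 41 and 52 in pBABE. The mean was 10.5 ± 3.50 CPM in caMNK (SD, n = 3) and 1.30 ± 0.444 CPM in pBABE (SD, n = 2), 8.20-fold higher in caMNK (log2 fold change 3.03, SE 0.361). Across the 13 alternative fits the log2 fold change lay between 2.69, without pBABE replicate 1, and 3.40, without pBABE replicate 2.

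Lpl encodes lipoprotein lipase, the enzyme that ANGPTL4 inhibits, and is on the plus strand of chromosome 8 (68880491 to 68907448). It was scarce, with 1.11, 1.73 and 1.11 CPM in the caMNK libraries, against 4.36 and 3.34 CPM in the pBABE libraries. The groups did not overlap, and caMNK replicate 2 was again the caMNK library nearest to pBABE. The reads numbered 32, 84 and 41 in caMNK and 182 and 108 in pBABE. The mean was 1.32 ± 0.356 CPM in caMNK and 3.85 ± 0.720 CPM in pBABE, 2.88-fold lower in caMNK (log2 fold change −1.53, SE 0.241). In bulk RNA, fewer cells that express a gene and less of its RNA per cell cannot be told apart.

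Lpl is also expressed by adipocytes and macrophages and acts on the wall of blood vessels, so markers of these cell types were read beside it. Of the 7 adipocyte markers, none passed 1 CPM in any library, and Retn and Lep had no counts. Their summed level was 0.209 to 0.267 CPM in caMNK and 0.155 to 0.168 CPM in pBABE. Of the 9 macrophage markers, 6 stayed under 1 CPM in every library, among them Ptprc, Adgre1 and Tyrobp. The sum over the list was 84.7 to 89.5 CPM in caMNK and 83.7 to 88.4 CPM in pBABE, most of it from Cx3cr1 (log2 fold change −0.02). Csf1r lay between 10.7 and 13.7 CPM in all 5 libraries (0.04). Cd68 measured 3.10, 2.43 and 4.29 CPM in caMNK, against 1.87 and 2.20 CPM in pBABE (0.68, edgeR adjusted p = 0.144). Of the 10 endothelial markers, 9 stayed under 1 CPM, with Tie1 and Gpihbp1 at no counts, and the sum was 4.16 to 4.56 CPM in caMNK and 5.66 to 9.69 CPM in pBABE. The remaining endothelial marker, the cadherin gene Cdh5, measured 2.26, 2.47 and 2.81 CPM in caMNK and 4.89 and 8.80 CPM in pBABE and fell with Lpl (log2 fold change −1.43, edgeR adjusted p = 0.0141). The other 3 tested endothelial markers had positive log2 fold changes and did not pass by edgeR, at 1.07 for Pecam1, 0.82 for Tek and 1.45 for Esam (adjusted p = 0.264, 0.213 and 0.0627), and the median of the 4 was 0.94. The part of these markers in the Lpl difference was not tested.

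Per kilobase of gene body, Angptl4 stood above Lpl in all 3 caMNK libraries and in 1 of the 2 pBABE libraries. In caMNK replicates 1, 2 and 3, Angptl4 had 39.3, 13.0 and 38.6 times the counts per kilobase of Lpl. In pBABE replicates 1 and 2 the ratio was 0.776 and 1.66. The lowest caMNK ratio was above the highest pBABE ratio. This follows from the values above, since the groups did not overlap for either gene and the genes differed in opposite directions. It is not a further result. The ratio is taken within a library and so does not depend on the scaling of its total.

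**Figure D1:**
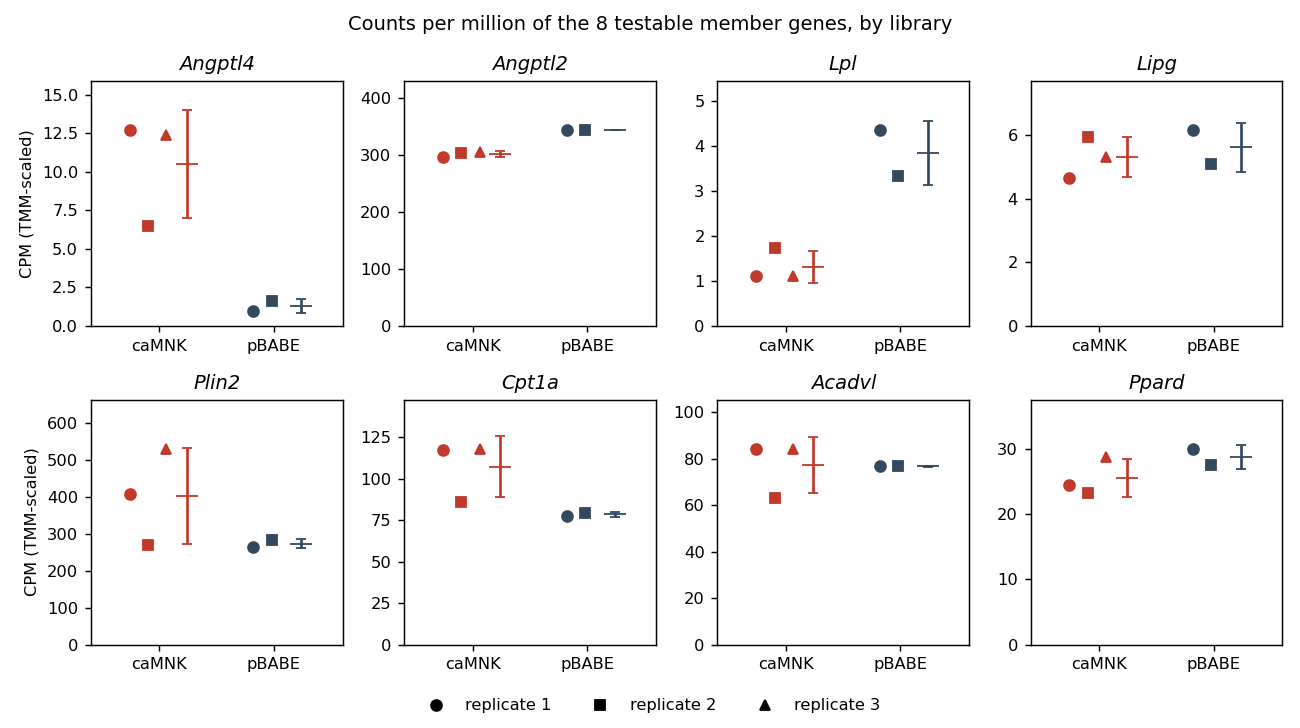
CPM (TMM-scaled, linear axis from 0) of the 8 members that passed the filter, with 1 point per library, marker shapes for the replicate number, and mean ± SD to the right of the points. Angptl4 lies between 6.50 and 12.7 CPM in caMNK and at 0.983 and 1.61 CPM in pBABE, Lpl is lower in every caMNK library, and Plin2 and Cpt1a in caMNK replicate 2 lie near the pBABE libraries.

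Endothelial lipase, encoded by Lipg on chromosome 18, is a relative of lipoprotein lipase that acts mainly on phospholipids. Lipg measured 4.67, 5.94 and 5.32 CPM in caMNK and 6.16 and 5.08 CPM in pBABE. The groups overlapped (log2 fold change −0.08, SE 0.161). Per kilobase, Lipg exceeded Lpl in every library, with a mean of 0.242 against 0.0488 CPM per kb in caMNK and 0.256 against 0.143 CPM per kb in pBABE.

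Angptl2, a secreted relative of ANGPTL4 that is not known as an inhibitor of lipoprotein lipase, was the abundant angiopoietin-like gene of these cells. It measured 295, 304 and 305 CPM in caMNK, against 343 and 343 CPM in pBABE. The groups did not overlap, and the difference was small (log2 fold change −0.19, SE 0.0786; −0.13 with total-count scaling). The 31649 bp of Angptl2 on chromosome 2 lie wholly inside Ralgps1 on the other strand, and the counting did not separate them: Ralgps1 had 60364 reads over the 5 libraries and Angptl2 59934. The value is therefore that of the shared span.

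Plin2 coats lipid droplets, and Cpt1a is the carnitine palmitoyltransferase that admits long-chain fatty acids to mitochondria. Plin2 measured 407, 271 and 530 CPM in caMNK, against 265 and 282 CPM in pBABE. Replicates 1 and 3 of caMNK were above both pBABE libraries, while replicate 2 lay between them, so the groups overlapped (log2 fold change 0.56, SE 0.232). Cpt1a measured 118, 86.3 and 118 CPM in caMNK, against 77.5 and 79.6 CPM in pBABE. All caMNK libraries were above pBABE, replicate 2 by the least (log2 fold change 0.45, SE 0.140). Neither gene was past the threshold with all libraries. Without caMNK replicate 2 both were past it, with log2 fold changes of 0.78 for Plin2 and 0.59 for Cpt1a. In that fit 13.9% of all genes tested were higher. Both were also past the threshold without a filter on low counts, where 1591 of 27978 genes were higher. For Plin2 the log2 fold change was 0.31 without caMNK replicate 3 and 0.28 with the replicate block, and it was not past the threshold in either. Cpt1a was past the threshold also by DESeq2 and with the replicate number as a block. In these fits 840 of 16994 and 1477 of 17026 genes were higher. The contrast chose both members, and replicate 2 was singled out after its values were seen, so nothing is read from these calls.

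Acadvl encodes the very-long-chain acyl-CoA dehydrogenase, which catalyses the opening step of mitochondrial beta-oxidation. It measured 84.3, 63.1 and 84.2 CPM in caMNK and 76.7 and 76.8 CPM in pBABE. The caMNK libraries lay on both sides of pBABE, with replicate 2 the lowest of all 5 (log2 fold change 0.01, SE 0.131). Acadvl overlaps Dvl2 by 2119 bp on the other strand, and reads there count for both genes.

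Ppard was the PPAR gene with counts to compare. It encodes the receptor PPAR-delta and measured 24.5, 23.2 and 28.8 CPM in caMNK, against 30.1 and 27.5 CPM in pBABE. The groups overlapped (log2 fold change −0.18, SE 0.117). Pparg, the receptor of adipocyte differentiation, had 7, 10 and 3 reads over a gene body of 129449 bp in caMNK and 0 and 3 reads in pBABE, where 3 reads correspond to 0.0719 and 0.0929 CPM. The pBABE libraries were at or under that floor, and no fold change is given. Cd36, the fatty acid receptor and transporter gene, had 0 reads in each caMNK library and 2 and 1 reads in pBABE. At these depths 0 reads allow a level of up to 0.105, 0.0617 and 0.0810 CPM in caMNK replicates 1, 2 and 3, so a difference in Cd36 was not detectable. Ppara, which is outside the set and was named after its values were seen, had 2, 2 and 0 reads in caMNK and 2 and 1 in pBABE. The floors cover counting error only.

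Levels per kilobase of gene body, introns included, spread widely. Their order depends on the length chosen, because introns make up unlike parts of these genes. Summed exons came to 3512 bp against a length of 21675 bp in Plin2 and 2686 against 5229 bp in Acadvl. They came to 7642 against 62432 bp in Cpt1a and 3541 against 7826 bp in Angptl4. An order per kilobase of exon can differ and was not computed. In caMNK the order was Plin2 with 18.6 ± 5.99 CPM per kb, Acadvl with 14.8 ± 2.34, Angptl2 with 9.52 ± 0.171, Cpt1a with 1.72 ± 0.293, Angptl4 with 1.35 ± 0.448, Ppard with 0.371 ± 0.0426, Lipg with 0.242 ± 0.0290 and Lpl with 0.0488 ± 0.0132 CPM per kb (SD, n = 3). Of the neighbours in that order, Plin2 and Acadvl overlapped between libraries, as did Cpt1a and Angptl4. In pBABE, Acadvl with 14.7 ± 0.0256 CPM per kb stood above Plin2 with 12.6 ± 0.571 CPM per kb (SD, n = 2). Angptl4 with 0.166 ± 0.0567 CPM per kb and Lpl with 0.143 ± 0.0267 CPM per kb were the lowest of the 8 genes in pBABE and overlapped each other.

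**Figure D2:**
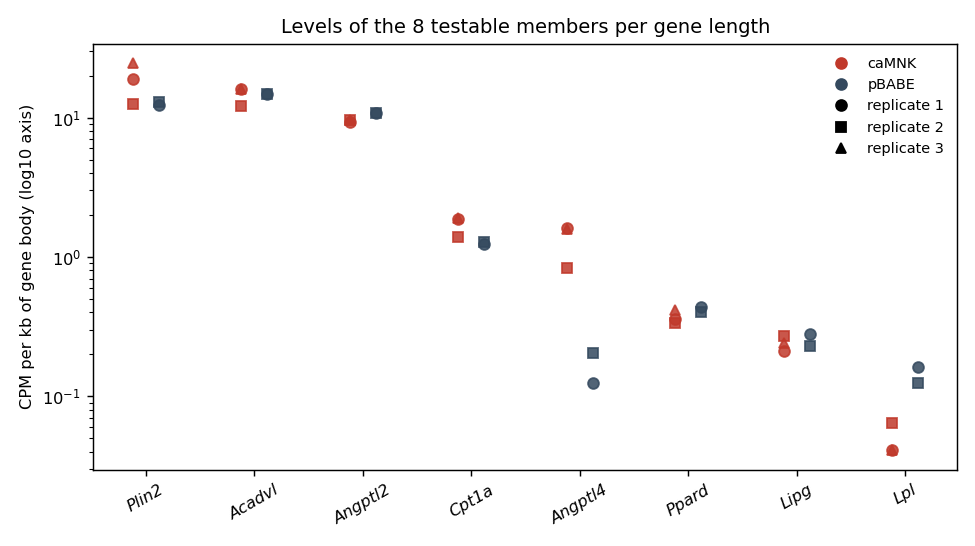
CPM per kilobase of gene body (log10 axis) for the 8 members that passed the filter, ordered by their caMNK mean, with 1 point per library. On this scale, which counts introns in the length, Angptl4 lies at 0.830 to 1.62 CPM per kb in caMNK, near Cpt1a. In pBABE it lies at 0.126 and 0.206 CPM per kb, near Lpl.

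Genes outside the set were drawn from 6 lists of lipid genes, 138 genes in all, of which 106 were abundant enough to test. By edgeR, 1 rose and 6 fell at an adjusted p under 0.05 over all genes, beside 4.42% and 3.52% of all genes tested. The median log2 fold change of the 106 was −0.05, against −0.0021 over all genes tested. Without pBABE replicate 1 or 2 no gene of the 6 lists passed, and without caMNK replicate 1 only Pdk4 did.

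The gene that rose was Pdk4, a pyruvate dehydrogenase kinase that spares glucose when fatty acids are burned and a known PPAR target. Pdk4 (chromosome 6, 5483351 to 5496309) measured 4.11, 3.00 and 5.13 CPM in caMNK, against 0.959 and 0.774 CPM in pBABE. All caMNK libraries were above both pBABE libraries, with replicate 2 the lowest of them. It rose 4.63-fold, with a log2 fold change of 2.21 (SE 0.286, adjusted p = 0.00653 by edgeR). This call was lost without pBABE replicate 1 (log2 fold change 2.37, adjusted p = 0.0936) and without pBABE replicate 2 (2.07, 0.0703).

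Promoters are printed for Plin2, Cpt1a and Pdk4, named above with Angptl4 as known PPAR targets, to show what the sequence before their starts holds. In these genes, and also in Acadvl among others, caMNK replicates 1 and 3 lay above both pBABE libraries. Each printed window is the 250 bases before the RefSeq start (GRCm38.p6), read in the direction of the gene. They are chr4:86670060-86670309 on the minus strand for Plin2, chr19:3323051-3323300 on the plus strand for Cpt1a and chr6:5496279-5496528 on the minus strand for Pdk4. The Cpt1a window lies inside the GENCODE M21 span of the gene, which begins at 3322334. The Pdk4 window overlaps the end of its span at 5496309, so positions below refer to the RefSeq start only. Capitals mark the PPAR core motif AGGTCA, which reads TGACCT on the other strand.
Plin2: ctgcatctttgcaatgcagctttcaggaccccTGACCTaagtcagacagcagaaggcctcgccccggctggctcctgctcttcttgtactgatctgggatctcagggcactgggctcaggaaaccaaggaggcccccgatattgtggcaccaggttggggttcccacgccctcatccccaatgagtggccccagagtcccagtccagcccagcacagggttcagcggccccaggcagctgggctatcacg
Cpt1a: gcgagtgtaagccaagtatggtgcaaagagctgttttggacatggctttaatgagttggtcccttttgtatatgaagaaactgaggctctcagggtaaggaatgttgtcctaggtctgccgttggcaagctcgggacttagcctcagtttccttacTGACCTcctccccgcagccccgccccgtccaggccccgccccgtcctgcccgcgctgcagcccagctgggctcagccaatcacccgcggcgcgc
Pdk4: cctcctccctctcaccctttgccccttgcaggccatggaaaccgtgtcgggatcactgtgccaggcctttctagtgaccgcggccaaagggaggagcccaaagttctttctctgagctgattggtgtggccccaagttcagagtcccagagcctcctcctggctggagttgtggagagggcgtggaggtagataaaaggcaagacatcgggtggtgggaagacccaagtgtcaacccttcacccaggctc
The core motif was found 1 time in Plin2, its farthest base 218 bases before the start, and 1 time in Cpt1a, 94 bases before it, in both on the strand opposite to the gene. Among the other members with a window it was also found in Acadvl, in Cd36 and in 2 of the 3 windows of Pparg, and not in Angptl2 and Ppard. It was not found in Pdk4, and 14% of all 32851 promoter windows of this length hold it on either strand. The exact consensus of the full PPAR response element, the direct repeat AGGTCANAGGTCA, holds the core motif within it. This exact sequence was in none of the windows of Plin2, Cpt1a, Pdk4, Angptl2, Acadvl, Ppard, Pparg and Cd36, and in 0.0335% of all windows. Imperfect forms of the repeat were not searched, so this does not show that the windows lack a response element. The hypoxia-response core GCGTG was found in Plin2 and in Pdk4, 86 and 71 bases before the start, and in 28.2% of all windows. It was also found in Acadvl, Ppard and Pparg, and not in Cpt1a, Angptl2 and Cd36. The form ACGTG was in none of the 3 printed windows, in those of Acadvl and Ppard, and in 16.6% of all. Angptl4, Lpl and Lipg had no entry in the promoter table.

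**Figure D3:**
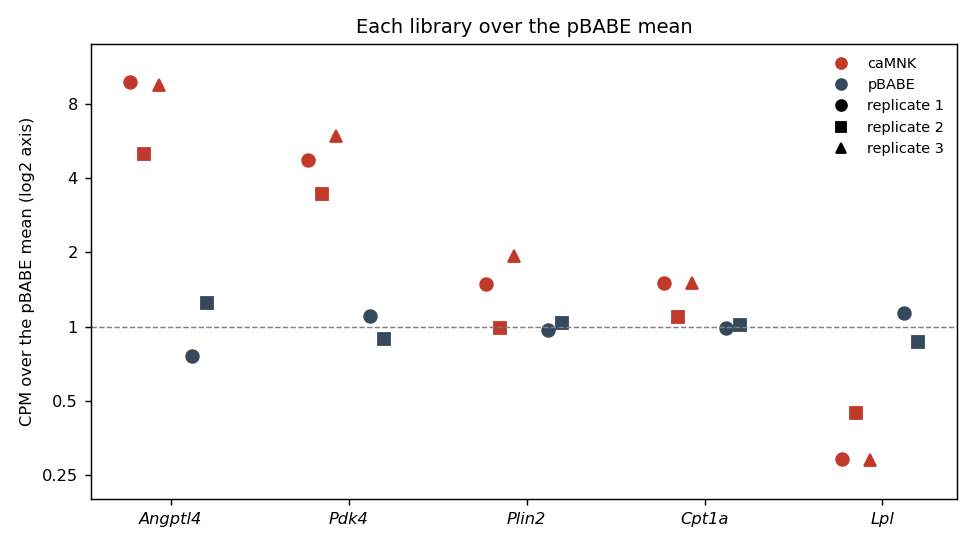
CPM of each library divided by the pBABE mean of the gene (log2 axis), for Angptl4, Pdk4, Plin2, Cpt1a and Lpl. In caMNK replicate 2 the ratio is 5.01 for Angptl4, 3.46 for Pdk4, 0.990 for Plin2, 1.1 for Cpt1a and 0.448 for Lpl, in each case the caMNK library nearest to pBABE.

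Library by library, caMNK replicate 2 stood apart from the other caMNK libraries in these genes, and not only in them. In the comparison of counts between pairs of libraries, chi-square per df is larger where counts depart further from sampling noise. It came to 20.5 for caMNK replicates 1 and 2, 45.0 for replicates 2 and 3 and 8.33 for replicates 1 and 3. Replicate 2 was also the deepest library, and the part of depth in these values was not tested. Over the pBABE mean, Angptl4 was at 9.81, 5.01 and 9.56 in caMNK replicates 1, 2 and 3, Pdk4 at 4.74, 3.46 and 5.92, Plin2 at 1.49, 0.990 and 1.94, and Cpt1a at 1.5, 1.1 and 1.51. Of the 40 lipid list genes with a positive log2 fold change, caMNK replicate 2 was the lowest caMNK library for 31 (77.5%), against 44.3% of the 8449 such genes over all. Of the 66 with a negative one, it was the highest for 24 (36.4%), against 44.4% of 8577 genes. This library was singled out after its values were seen. Malat1 and Neat1 were also lowest of the caMNK libraries there, at 259 and 172 CPM, against 432 to 485 and 244 to 252 CPM in the other caMNK libraries. Their part in the difference between these libraries was not tested.

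Of the 6 falls, 4 lay in the list of lipases and their regulators, which holds lipases, their inhibitors and maturation factors, and lipoprotein receptors. Of its 18 tested genes, 0 rose and 4 fell by edgeR, beside 4.42% and 3.52% of all genes tested, with a median log2 fold change of −0.12. Sel1l, an ER-associated degradation gene needed for maturation of lipoprotein lipase in mouse, measured 79.7, 83.1 and 70.8 CPM in caMNK, against 108 and 105 CPM in pBABE (log2 fold change −0.45, SE 0.0941, adjusted p = 0.0255). The receptor gene Vldlr, whose product binds triglyceride-rich particles, measured 172, 162 and 164 CPM in caMNK, against 214 and 204 CPM in pBABE (−0.33, SE 0.0821, adjusted p = 0.0458). The proteoglycan gene Hspg2 measured 402, 337 and 363 CPM in caMNK, against 458 and 524 CPM in pBABE (−0.42, SE 0.104, adjusted p = 0.0460). For Sel1l, Vldlr and Hspg2 the groups did not overlap, as for 44.9% of all genes. With total-count scaling the calls of Vldlr (adjusted p = 0.0820) and Hspg2 (0.0765) were lost, as they were with the stricter filter, without genes that share reads and without caMNK replicate 3. The most abundant of the list per kilobase were the lipase maturation factor gene Lmf2, with a log2 fold change of −0.17 (adjusted p = 0.254), and the endocytic receptor gene Lrp1, with −0.27 (0.219; 0.0377 without a filter on low counts and 0.0467 with the replicate block).

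None of 14 tested genes of fatty acid uptake and activation passed by edgeR, with 3 higher and 1 lower at an unadjusted p under 0.05 and a median of −0.06. Over all genes tested, 13.8% were higher and 12.1% lower at an unadjusted p under 0.05. The acyl-CoA binding protein gene Dbi measured 69.6 ± 3.25 CPM in caMNK and 63.2 ± 3.86 CPM in pBABE, and the fatty acid binding protein gene Fabp5 31.1 ± 0.448 CPM in caMNK and 33.2 ± 1.73 CPM in pBABE. Of 16 lipid droplet and triglyceride synthesis genes, 1 fell and 0 rose, beside 3.52% and 4.42% of all genes tested, with a median of 0.12. It was Gpam, the mitochondrial enzyme that begins glycerolipid synthesis, at 7.00, 8.04 and 7.08 CPM in caMNK, against 12.4 and 12.9 CPM in pBABE (−0.78 on the log2 scale, SE 0.119, adjusted p = 0.00999 by edgeR). The call of Gpam was lost without pBABE replicate 1 (adjusted p = 0.135), pBABE replicate 2 (0.11) or caMNK replicate 1 (0.0580). The droplet-associated gene Aup1, which shares reads with Htra2, had a log2 fold change of 0.22 and the GTPase gene Rab18 −0.13.

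Of 27 tested genes listed under mitochondrial fatty acid oxidation, Pdk4 rose and Acot2 fell, beside 4.42% and 3.52% of all genes tested, and the median was −0.04. Pdk4, a pyruvate dehydrogenase kinase, is not itself an oxidation enzyme, and no other gene of the list rose past the threshold. Acot2, an acyl-CoA thioesterase of mitochondria, measured 4.70, 4.40 and 5.02 CPM in caMNK, against 6.64 and 7.06 CPM in pBABE (log2 fold change −0.54, SE 0.134, edgeR adjusted p = 0.0451). Its call was lost by DESeq2 (0.0547), without genes that share reads (0.0571) and with total-count scaling (0.0655). Echs1 and Etfb, an enoyl-CoA hydratase and an electron carrier subunit and the most abundant of the list per kilobase, had log2 fold changes of −0.04 and −0.04, and those of both were positive with total-count scaling. None of 14 peroxisomal oxidation genes passed by edgeR, with 1 higher and 1 lower at an unadjusted p under 0.05, beside 13.8% and 12.1% of all genes tested, and a median of 0.02. Ech1 measured 33.9 ± 5.13 CPM in caMNK and 30.7 ± 1.91 CPM in pBABE, and the thiolase gene Acaa1a, which shares reads with Myd88 and Slc22a14, 31.6 ± 4.41 CPM in caMNK and 31.6 ± 0.873 CPM in pBABE.

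None of the 17 tested genes listed as PPAR partners and cofactors passed by edgeR, and their median log2 fold change was −0.21. At an unadjusted p under 0.05, 0 were higher and 7 lower, beside 13.8% and 12.1% of all genes tested. The list also holds genes that are not strictly either, such as the enzyme gene Lpcat3 and the oxysterol receptor genes Nr1h2 and Nr1h3. For 10 of the 17, Lpcat3 among them, every caMNK library was below both pBABE libraries, beside 22.6% of all genes tested. The oxysterol receptor gene Nr1h2 measured 31.0 ± 4.65 CPM in caMNK and 30.9 ± 0.191 CPM in pBABE, and the corepressor deacetylase gene Hdac3 82.8 ± 4.77 CPM in caMNK and 84.0 ± 1.41 CPM in pBABE. Without caMNK replicate 2, where 15.7% of all genes were lower, 8 of the 17 were lower and none higher by edgeR. Named after their values were seen, these included Lpcat3 (log2 fold change −0.34) and the nuclear receptor corepressor gene Ncor1 (−0.47). They also included the coactivator gene Ncoa2 (−0.54) and the PPAR partner gene Rxra (−0.26).

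**Figure D4:**
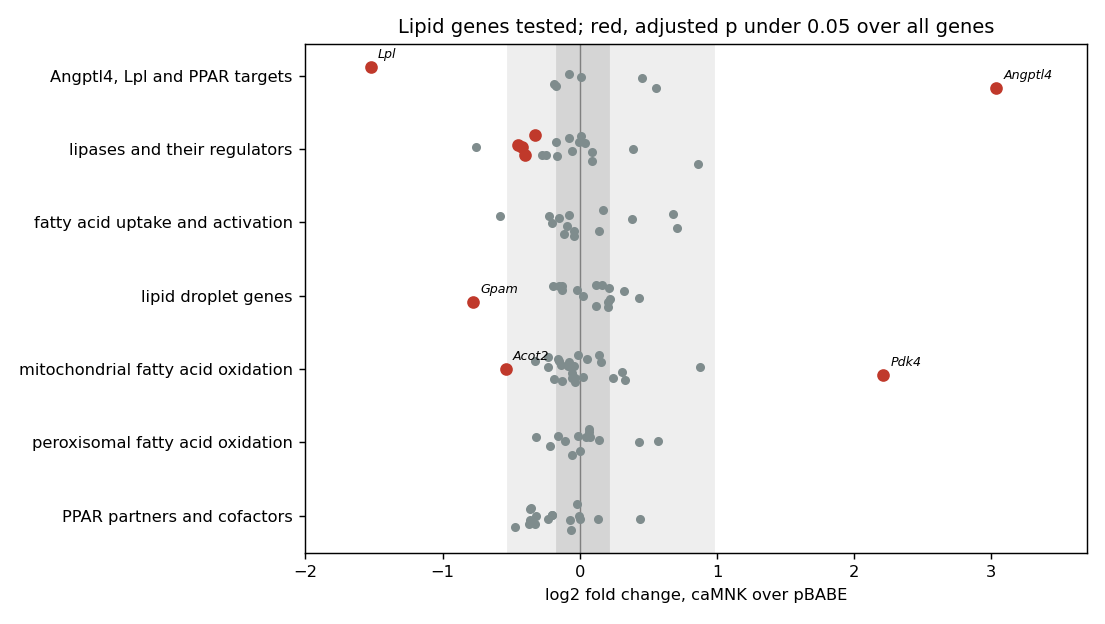
Log2 fold changes of caMNK over pBABE for the tested members and the tested genes of the 6 lists, 1 point per gene, red where the adjusted p was under 0.05 over all genes and named where the change exceeded 0.5. The dark band spans the middle 50% and the light band the middle 90% of all 17026 genes tested, and Angptl4 (3.03), Pdk4 (2.21) and Lpl (−1.53) lie far outside both.

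Without caMNK replicate 2, a choice made after seeing the data, 15 of the 106 lipid list genes were higher and 18 lower by edgeR, beside 13.9% and 15.7% of the 16675 genes then tested. These shares are near those of all genes. Named after their values were seen, the higher genes included Pdk4 (log2 fold change 2.40), the lipoprotein gene Apoe (1.05), the acyl-CoA synthetase gene Acsbg1 (0.89), the hormone-sensitive lipase gene Lipe (0.61), the triglyceride synthesis gene Dgat1 (0.53) and the carnitine carrier gene Slc25a20 (0.33). The lower genes, likewise named afterwards, included Gpam (−0.85), Sel1l (−0.51), Acot2 (−0.49), the acetyl-CoA acetyltransferase gene Acat1 (−0.38), the acyl-CoA binding protein gene Acbd5 (−0.30) and the acyl-CoA dehydrogenase gene Acad9 (−0.28).

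Over 6754 genes of log2 CPM averaging at least 3 that share no reads, the profiles most like that of Angptl4 over the 5 libraries were those of Mmp9, a gelatinase gene, Mknk1 and Egr1, an immediate early transcription factor gene. Predicted genes and Rik clones were passed over, and Lpl and Pdk4 themselves lie under that level. Likeness was the root mean square difference of centred log2 CPM, which was 0.288 for Mmp9, 0.404 for Mknk1 and 0.468 for Egr1. The gap between the groups is part of this measure, so genes with a similar fold change come near. The pattern of the libraries within a group is part of it too. The log2 fold changes were 2.88, 3.36 and 2.13, and Mknk1 is the gene of the introduced kinase. Shared regulation was not tested. Mmp9 measured 20.5, 11.7 and 24.2 CPM in caMNK, against 2.66 and 2.38 CPM in pBABE. Like Angptl4, it was lowest of the caMNK libraries in replicate 2, a likeness that helped to pick it and is not a further result. The profiles most like that of Lpl were those of Adamtsl3 (0.185), an ADAMTS-like matrix protein gene, Npr3 (0.25), the natriuretic peptide clearance receptor gene, and Pdk1 (0.258), another pyruvate dehydrogenase kinase gene. Adamtsl3 measured 30.9, 44.9 and 29.4 CPM in caMNK, against 82.0 and 80.0 CPM in pBABE. Pdk1 measured 21.8, 24.4 and 21.2 CPM in caMNK, against 51.9 and 48.8 CPM in pBABE, so that this kinase gene and its relative Pdk4 stood on opposite sides of pBABE in every caMNK library.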

How the data were processed

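The authors deposited 1 table of raw read counts per library, with a length for each of 46959 gene symbols. The tools named per the submitters' processing notes are featureCounts 1.5.3, STAR 2.5.3, DESeq2, Trimmomatic 0.32, SAMtools 0.1.19 and FastQC 0.11.2, with the build mm10; the annotation release and options were not given in the sources used here. Against GENCODE M21, 37335 of 44118 deposited lengths equalled the genomic span and 0 of 27786 multi-exon genes the summed exons, so counts cover introns and reads in overlaps can count for both genes. Genes were marked where an overlapping gene (bedtools 2.31.1) held counts of 10% or more of their own.

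Counts were tested with edgeR 4.0.16 in R 4.3.3 (filterByExpr, TMM, robust quasi-likelihood F test, group only, 3 caMNK and 2 pBABE libraries), adjusted over all 17026 genes tested; SE was taken as the absolute log2 change over the root of F. The test was run on simulated data. The p-values measure the spread between these libraries, which may be technical. Alternatives were DESeq2 1.42.0, limma 3.58.1, other scalings and filters, a replicate block, genes without shared reads, and each library left out. The members and lists were chosen with earlier results of these data known. Named were all members, in each lipid list up to 6 genes past the threshold by p and the 2 most abundant per kilobase, and the 3 profiles most like Angptl4 and Lpl; genes outside this rule are marked in the text or are markers. A gene that the rule names among the lipase list is not reported here.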

Additional observations from a re-analysis of the deposited data

How the results depend on the processing

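The counts of calls over all genes, the 10 members and the other lipid genes each moved by over 1.5 times in some settings. Without a filter on low counts, 1591 of 27978 genes tested were higher and 1330 lower in caMNK. There 3 members were higher, and 5 and 13 other lipid genes higher and lower. With the replicate block the counts were 1477 and 1231 of 17026 genes, with 2 members higher and 5 and 13 other lipid genes. Without genes that share reads they were 427 and 290 of 10678 genes, with 3 other lipid genes lower. DESeq2 had 840 of 16994 genes higher, with 2 members and 3 other lipid genes among them. Total-count scaling had 997 of 17026 genes higher and 466 lower, with 2 other lipid genes higher and 3 lower. The contrast chose the members, so nothing is read from their counts. Leaving out 1 library at a time gave 11 to 2325 genes higher and 12 to 2617 lower, 0 to 3 members higher and 0 to 2 lower, and 0 to 15 other lipid genes higher and 0 to 18 lower. A group left with 1 library was assumed to vary like the other. The replicate numbers 1 and 2 are in both groups, but deviations of same-numbered libraries from their group means correlated at −0.055 and −0.025 across genes, so the numbers were not taken as a pairing; with 2 shared numbers the block leaves caMNK replicate 3 without a partner. Angptl4 and Lpl kept their signs in all 13 alternatives; the range for Lpl was −1.80 to −1.33. Angptl4 was not past the threshold without pBABE replicate 1, and Lpl without either pBABE replicate or without caMNK replicate 1.

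Signs turned in 7 named genes with log2 fold changes near 0 and no call, 2 of them members. Acadvl was at −0.0071 by limma-voom, −0.0027 without a filter and −0.073 with the replicate block, and ranged from −0.059 to 0.13 with 1 library left out; Lipg ranged from −0.21 to 0.058. Total-count scaling gave 0.011 for Echs1, 0.018 for Etfb, 0.053 for Acaa1a and 0.034 for Hdac3. Acaa1a was at 0.0013 with RLE scaling and 0.012 with the stricter filter. Nr1h2 was at −0.0050 by DESeq2, −0.013 by limma-voom, −0.0069 without a filter and −0.11 with the replicate block. With 1 library left out, values ranged from −0.13 to 0.031 for Echs1, −0.14 to 0.064 for Etfb, −0.093 to 0.11 for Acaa1a, −0.043 to 0.026 for Hdac3 and −0.11 to 0.11 for Nr1h2. The cause was not tested. The depth limits Pparg, Cd36 and Ppara, which had at most 10 reads in a library, and leaves Lpl with 32 to 84 reads in caMNK.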
